A study of Mus musculus with 6 samples.

Results

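The 32 genes described here are chaperones and unfolded protein response genes of the endoplasmic reticulum (ER), and all of them were found by name among the 27998 genes measured in single cells of mouse aorta. They fall into groups by role: the stress sensors Atf6, Ern1 and Eif2ak3, the transcription factors Xbp1 and Atf4, chaperones of the Hsp70 and Hsp90 families (Hspa5, Hspa13, Hsp90b1, Hyou1), the lectin chaperones Calr and Canx, and the disulfide isomerases Pdia3, Pdia4 and Pdia6. The remaining members are the co-chaperones Dnajb9, Dnajb11, Dnajc3, Dnajc10 and Sdf2l1, the small secretory pathway proteins Manf and Creld2, the ER-associated degradation genes Herpud1, Edem1, Sel1l, Syvn1, Derl1, Derl2 and Derl3, the ATF4 targets Trib3, Chac1 and Asns, and the translocon subunit Sec61b.

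Proteins bound for the cell surface or for secretion are folded in the ER with the help of these chaperones, and misfolded ones are drawn back out and degraded. When unfolded protein builds up, the sensor ATF6 is cut to release a transcription factor, IRE1 (the product of Ern1) splices Xbp1 mRNA, and PERK (the product of Eif2ak3) slows translation while favouring that of ATF4. The ATF6 and XBP1 arms are known for raising the chaperone and degradation genes, and the ATF4 arm for raising genes of amino acid supply and redox balance. In the vessel wall the matrix-producing fibroblasts and smooth muscle cells carry a heavy secretory load, and plasma cells are the standard example of a cell built for secretion.

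Aortas of C57B/6J mice aged 18 weeks were digested to single cells, and 3 samples came from mice given a high-fat diet and 3 from mice on the control diet, which the series describes as normal. The duration of the diet is not stated in the sources used here. Whether the samples came from different animals is not given, and the p-values therefore reflect sample-to-sample spread, which may be technical. Each value rests on 3′ transcript tags counted by unique molecular identifier (UMI), which cannot show whether Xbp1 mRNA was spliced, and levels of different genes were not compared with each other.

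The files held 8268 to 10888 cells per high-fat diet sample and 6623 to 18138 cells per control sample, with 41388034 to 83886418 UMIs per sample. After filtering, 59413 of 62838 cells were kept. Cells were put into classes by marker genes, and a class was compared only with at least 20 cells in each sample. That left fibroblast- (18099 cells), smooth muscle- (11461), macrophage- (5760), endothelial- (2309), T cell- (2076), dendritic- (599), mesothelial- (509), pericyte- (444) and lymphatic endothelial-like cells (311). The smallest sum was that of mesothelial-like cells in control 1, which rested on 25 cells. Cells that passed the markers of more than 1 lineage were left out as possible doublets (10.5% of kept cells, and 22.3% in control 1). Control 1 stood apart: skeletal muscle markers summed to 2516 to 3756 CPM (counts scaled to a total of 1000000) in each of its 9 classes, against at most 1381 CPM in any other sample, and 1 fibroblast cluster took 1341 of its 1373 cells from it. Counts of calls are therefore also given without control 1. Barcodes in each sample ended in 1 of 2 suffixes, which the labels do not explain and which are read here as 2 gel-bead wells, and any pair of the 12 wells shared 1 to 124 barcodes, at most 1.577% of the smaller well.

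The promoters of the chaperone genes are shown first because the ER stress response element (ERSE), a target of ATF6 and XBP1 complexes, is the sequence by which many of them are known to be switched on. RefSeq sequences of build GRCm38.p6 were at hand for 27 of the 32 members; Atf6, Hspa13, Hyou1, Manf and Derl1 had no entry. In the 250 bases upstream of the annotated start, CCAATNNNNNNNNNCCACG was searched on both strands. It was found in 9 of 27 members (33.3%) and in 35 of all 27025 genes with a window (0.130%). Those with a match were Calr, Canx, Creld2, Derl3, Dnajc3, Hsp90b1, Hspa5, Pdia6 and Syvn1, with a pair of matches in Hsp90b1. The windows of Hspa5 (chr2:34771840-34772089, plus strand) and Creld2 (chr15:88819396-88819645, plus strand) follow 5′ to 3′, with the fixed letters of the ERSE in capitals.
Hspa5: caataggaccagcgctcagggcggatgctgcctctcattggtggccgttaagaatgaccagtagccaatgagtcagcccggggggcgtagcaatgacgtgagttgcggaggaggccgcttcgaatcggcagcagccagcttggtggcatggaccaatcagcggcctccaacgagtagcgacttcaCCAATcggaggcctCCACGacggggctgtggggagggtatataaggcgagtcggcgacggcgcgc
Creld2: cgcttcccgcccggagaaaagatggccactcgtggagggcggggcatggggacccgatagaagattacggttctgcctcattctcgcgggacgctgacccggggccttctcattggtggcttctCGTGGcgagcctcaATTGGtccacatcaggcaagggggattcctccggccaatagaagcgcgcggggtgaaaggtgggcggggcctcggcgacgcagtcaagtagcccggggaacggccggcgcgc

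The other matches are printed as sites alone, so that the fixed ends can be compared across genes. Calr, Derl3 and the second Hsp90b1 site read in reverse, as Creld2 does, and the others read forward.
Calr: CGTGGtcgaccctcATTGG
Canx: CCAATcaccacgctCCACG
Derl3: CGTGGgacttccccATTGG
Dnajc3: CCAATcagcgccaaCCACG
Hsp90b1: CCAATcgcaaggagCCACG
Hsp90b1: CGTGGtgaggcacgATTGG
Pdia6: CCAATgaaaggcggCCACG
Syvn1: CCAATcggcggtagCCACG

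These sites began between 212 and 44 bases before the start. A shorter form, ERSE-II, was found in Herpud1 alone among the members, as ATTGGgCCACG with the free base in lower case, and in 0.037% of genes. TGACGTGG, an XBP1 core, was in none of the 27 windows and in 0.603% of genes. TGATGNAA, an ATF4 composite element, was in Asns, Chac1 and Herpud1, against 3.91% of genes.

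The first question was whether the members differed by diet within a class. Of the 32 members, 19 combinations of gene and class were called (adjusted p under 0.05), all of them higher on the high-fat diet, and they came from Hspa5, Hsp90b1, Calr, Pdia3, Pdia4, Pdia6, Dnajb9, Manf and Creld2. They lay in mesothelial- (6), lymphatic endothelial- (7), endothelial- (4) and fibroblast-like cells (2). No member was called lower in any class by edgeR's quasi-likelihood test or by DESeq2. At an unadjusted p under 0.05, 2 members were lower in endothelial- and 1 in mesothelial-like cells. The share of all genes lower at that p is not given, so these counts have no background to be read against. The highest fold changes were those of folding machinery genes, and Ern1, Atf4 and Sec61b were at or below 0 in most classes tested. A difference in a class sum can come from the RNA of each cell or from the mix of cells within the class, and these cannot be told apart here. Pooled over the samples of a diet, cluster 10 held 43.6% of T cell-like cells on the high-fat diet and 81.8% in controls, where cluster 24 was the main other cluster. By sample, cluster 10 held 118 of 240, 54 of 185 and 83 of 160 cells on the high-fat diet. It held 34 of 82, 773 of 893 and 412 of 516 cells in controls. Cluster 4 held 29.6% of fibroblast-like cells on the high-fat diet and 12.3% in controls, with 1755, 962 and 51 cells in high-fat diet 1, 2 and 3. In smooth muscle-like cells cluster 7 held 34.6% of the cells on the high-fat diet, and 1687 of its 2306 cells came from high-fat diet 2. Cluster 16, almost wholly from control 1, held 20.2% in controls. These shares followed single samples in part, and a difference by diet was not tested.

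**Figure D1:**
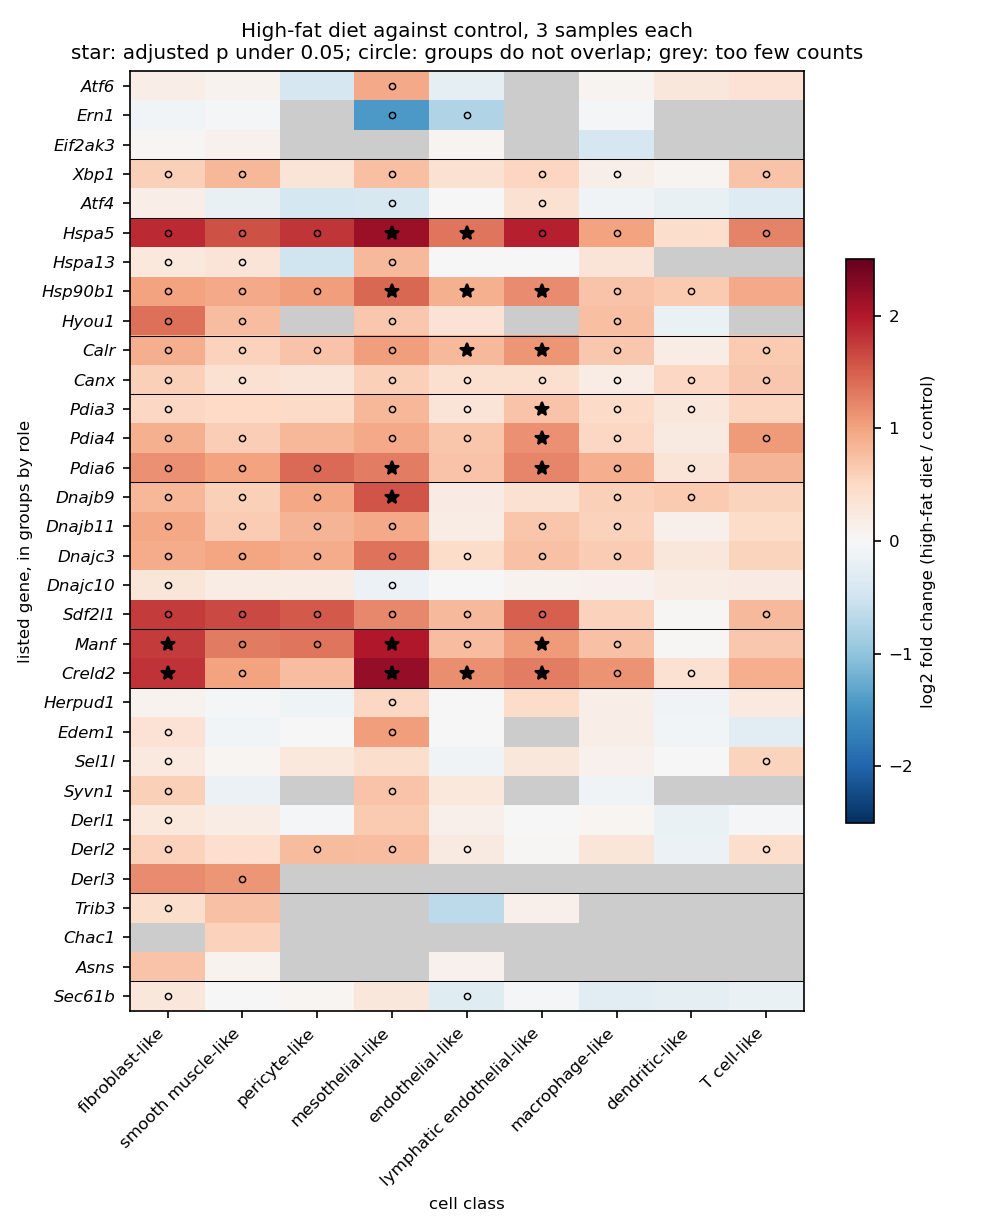
Log2 fold change of each listed gene, high-fat diet over control (colour), by gene in groups of role (rows) and cell class (columns), with 3 samples per diet. Stars mark an adjusted p under 0.05, circles mark diets whose samples do not overlap, and grey marks too few counts; the stars are among the chaperones, isomerases, Manf and Creld2.

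The counts per class are read against all genes of the same fit. In fibroblast-like cells 31 members were tested, 30 had a positive fold change (49.3% of all genes) and 24 were higher without overlap between the diets (9.75% of all genes). Of these, 2 rose (0.0438% of all genes were called higher). In mesothelial-like cells 24 of 27 were positive (50.7%), 21 were higher without overlap (7.59%) and 6 rose (0.143%), while Ern1, Atf4 and Dnajc10 were lower without overlap (7.54%). In lymphatic endothelial-like cells 22 of 23 were positive (48.9%), 14 were higher without overlap (7.44%) and 7 rose (0.342%). In endothelial-like cells 22 of 30 were positive (49.7%), 12 were higher without overlap (9.07%) and 4 rose (0.121%), while Ern1 and Sec61b were lower without overlap (8.96%). The median log2 fold change over the members tested was 0.60 in fibroblast-, 0.82 in mesothelial-, 0.54 in lymphatic endothelial- and 0.22 in endothelial-like cells.

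In the other classes no member was called. In smooth muscle-like cells 27 of 32 were positive (48.1% of all genes), 16 were higher without overlap (7.38%), and 16 were higher at an unadjusted p under 0.05 (4.35%), with 0 called by edgeR (0% of all genes) and 8 by DESeq2 (0.764%). In macrophage-like cells 23 of 28 were positive (48.5%), 14 were higher without overlap (7.02%) and 13 at an unadjusted p under 0.05 (3.75%), with 0 called by edgeR (0%) and 5 by DESeq2 (0.252%). In T cell-like cells 19 of 23 were positive (49.1%), 8 were higher without overlap (7.97%) and 12 at an unadjusted p under 0.05 (7.07%), with 0 called by edgeR (0.0445%) or by DESeq2. In dendritic-like cells 17 of 24 were positive (50%), 6 were higher without overlap (7.2%) and 4 at an unadjusted p under 0.05 (4.97%), with 0 called by edgeR (0%) or by DESeq2. In pericyte-like cells 18 of 24 were positive (47.9%), 10 were higher without overlap (5.82%) and 11 at an unadjusted p under 0.05 (2.37%), with 0 called by edgeR (0%) and 1 by DESeq2 (0.0481%). With all cells of a sample in 1 sum, 28 of 32 were positive (48.8%), 21 were higher without overlap (8.33%) and 18 at an unadjusted p under 0.05 (4.58%), with 0 called by edgeR (0%) and 15 by DESeq2 (2.11%).

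The counts of calls changed when single samples were left out, as did calls over all genes. In fibroblast-like cells 0 members were called when any one of the 6 samples was left out. Of all genes, 0.0143% were called there without control 3 and 0% without any other sample. Over 17 alternatives, these among them, the log2 fold change in fibroblast-like cells was 1.66 to 1.97 for Creld2 and 1.38 to 2.10 for Manf. In endothelial-like cells the 4 calls became 0, 0 and 1 without high-fat diet 1, 2 and 3 (0, 0 and 0.11% of all genes). They became 7, 0 and 2 without control 1, 2 and 3 (2.87, 0.0291 and 0.189%). In lymphatic endothelial-like cells the 7 calls became 3, 2 and 3 without high-fat diet 1, 2 and 3 (0.127, 0.0798 and 0.237% of all genes). They became 10, 4 and 5 without control 1, 2 and 3 (1.69, 0.318 and 0.253%). In mesothelial-like cells the 6 calls became 6, 2 and 6 without high-fat diet 1, 2 and 3 (0.107, 0.0408 and 0.203% of all genes). They became 6, 7 and 3 without control 1, 2 and 3 (0.374, 0.201 and 0.0668%). Without control 1, calls over all genes also became more frequent. Then 9 of 25 members were called in T cell-like cells (9.89% of all genes), 7 of 28 in macrophage-like (3.67%) and 1 of 24 in dendritic-like cells (3.96%), against 0 with it, so the dendritic count was at the background share. The 7 and 10 calls of endothelial- and lymphatic endothelial-like cells without it stood beside 2.87% and 1.69% of all genes. With only 2 controls to overlap with, the counts of members higher without overlap when control 1 was left out were 25 in fibroblast-, 20 in smooth muscle-, 12 in endothelial-, 15 in macrophage-, 21 in mesothelial- and 14 in lymphatic endothelial-like cells, and 16 in T cell-like cells. The share of all genes without overlap at this setting is not given, so these counts have no background to be read against.

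Hspa5 encodes BiP, the ER member of the Hsp70 family, which binds unfolded chains and holds the sensors inactive. Its fold change was positive in all 9 classes and its diets did not overlap in 8 of them, dendritic-like cells being the exception. It rose in mesothelial-like cells, with 1131, 1555 and 1659 CPM on the high-fat diet and 311, 418 and 254 CPM in controls (log2 fold change 2.13, SE 0.21, adjusted p = 0.000158). It also rose in endothelial-like cells, with 401, 576 and 417 CPM on the high-fat diet and 214, 190.2 and 148 CPM in controls (1.34, SE 0.18, adjusted p = 0.0193). The lowest high-fat diet sample of the endothelial-like sums lay well above the highest control.

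In fibroblast-like cells Hspa5 had 695, 1135 and 1083 CPM on the high-fat diet and 305, 285 and 205 CPM in controls (log2 fold change 1.87, SE 0.24, adjusted p = 0.0862). The smooth muscle-like sums had 382, 692 and 466 CPM on the high-fat diet and 179, 223 and 111 CPM in controls (1.58, SE 0.31, adjusted p = 0.283). In macrophage-like cells it had 624, 843 and 524 CPM on the high-fat diet and 391, 291 and 305 CPM in controls (1.01, SE 0.20, adjusted p = 0.284). The diets were apart in each of these classes although none passed the adjusted threshold. In T cell-like cells it had 313, 590.1 and 378 CPM on the high-fat diet and 311, 120.4 and 129.9 CPM in controls (1.23, SE 0.42, adjusted p = 0.359). There control 1 was as high as high-fat diet 1, and fibroblast markers in the same T cell-like sums were at 2440 CPM in control 1, against 1019.6 to 1287 CPM in the high-fat diet samples and 501 to 641 CPM in the other controls. Their part in the result was not tested. In lymphatic endothelial-like cells the log2 fold change was 1.94 (SE 0.33, adjusted p = 0.111), with 556, 805 and 822 CPM on the high-fat diet and 265, 198 and 104 CPM in controls.

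**Figure D2:**
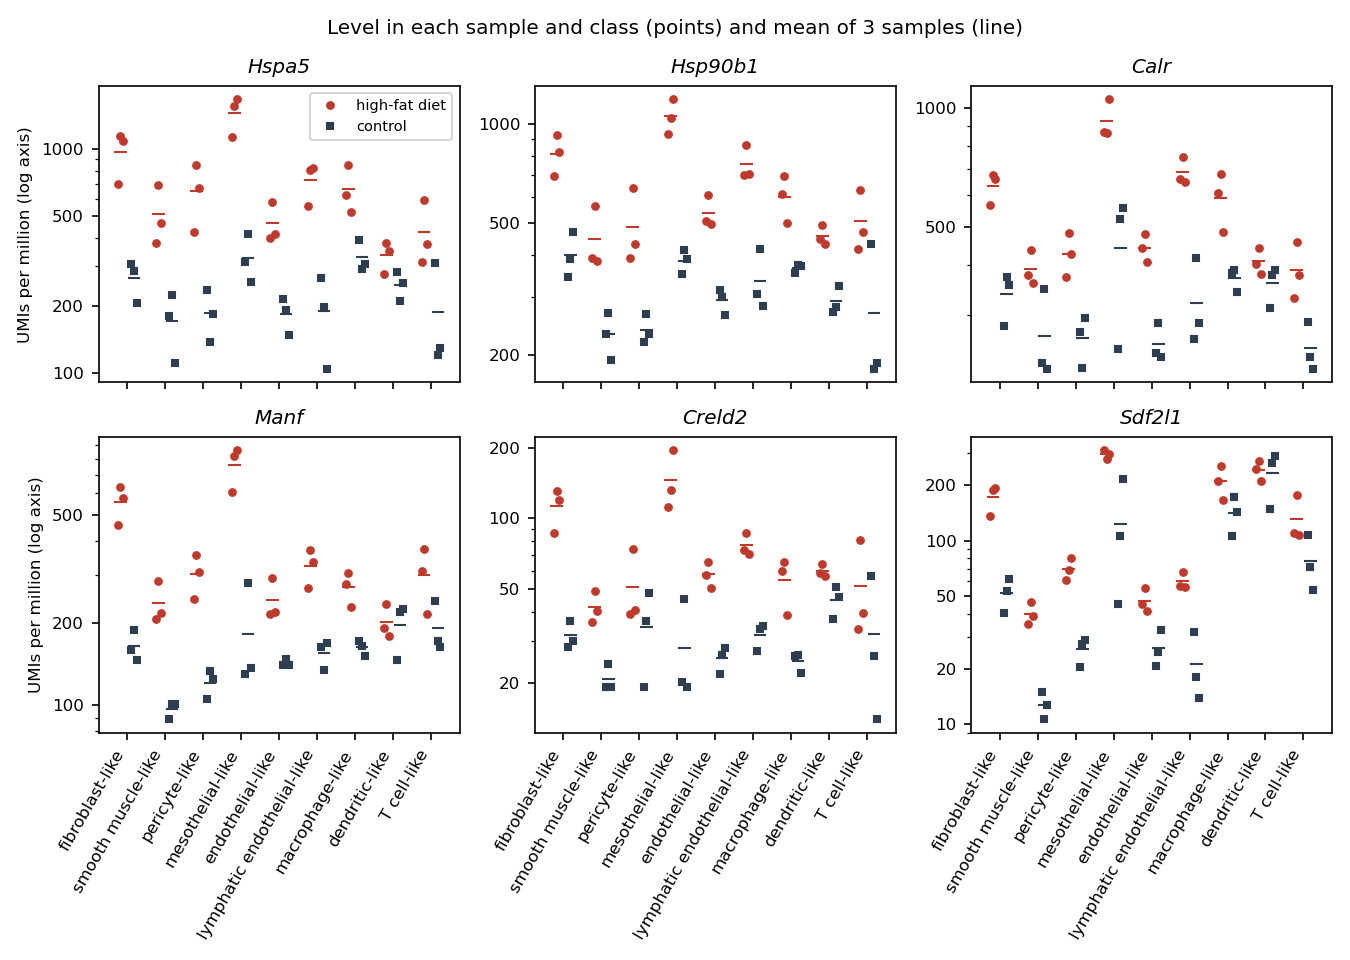
CPM (log axis) of selected listed genes in each of the 6 samples, by cell class; points are samples, high-fat diet left of control within each class, and lines are means of 3. The Hspa5 points of mesothelial-like cells lie at 1131 to 1659 on the high-fat diet and at 254 to 418 in controls, and those of dendritic-like cells overlap.

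Split by barcode suffix, with the presumed wells called 1 and 2, the order of Hspa5 in fibroblast-like cells was the same for suffix 1 but not for suffix 2. In well 1, before scaling, it stood at 1076, 1635 and 1288 CPM on the high-fat diet and at 284.5, 264 and 313 CPM in controls. In well 2 it stood at 307, 757 and 793 CPM on the high-fat diet and at 453, 251 and 178 CPM in controls, so that high-fat diet 1 fell below control 1. The log2 fold change was 2.16 in well 1 and 1.07 in well 2. Of the members called in fibroblast-like cells, Manf had 2.10 and 1.38 in wells 1 and 2, and Creld2 had 1.85 and 1.66. Members called numbered 2 in well 1 and 0 in well 2 for fibroblast-like cells, 0 in both for endothelial-like cells, and 1 in well 1 for lymphatic endothelial-like cells. Shares over all genes are not given for single wells. Too few mesothelial-like cells remained in single wells, and too few lymphatic endothelial-like cells in well 2.

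Hsp90b1 encodes GRP94, the ER member of the Hsp90 family. It was positive in 9 of 9 classes, without overlap in 8, and it rose in 3. In mesothelial-like cells it had 933, 1047 and 1188 CPM on the high-fat diet and 351, 415 and 390.2 CPM in controls (log2 fold change 1.45, SE 0.17, adjusted p = 0.000804). In lymphatic endothelial-like cells it had 704, 867 and 708 CPM on the high-fat diet and 306, 418 and 281 CPM in controls (1.18, SE 0.17, adjusted p = 0.00133). In endothelial-like cells it had 508, 611 and 498 CPM on the high-fat diet and 313, 299.6 and 264 CPM in controls (0.88, SE 0.14, adjusted p = 0.0389). Every high-fat diet value exceeded every control value in these 3 classes. In macrophage-like cells it had 613, 694 and 503 CPM on the high-fat diet and 353, 374 and 372 CPM in controls (0.72, SE 0.15, adjusted p = 0.287), again without overlap. Hyou1, a large Hsp70-like protein that recharges BiP with nucleotide, was tested in 6 classes, with fold changes from -0.16 to 1.38 and no call. Hspa13, a further Hsp70 family member, was tested in 7, with fold changes from -0.49 to 0.81 and no call.

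The lectin chaperones hold newly made glycoproteins, Calr (calreticulin) in the lumen and Canx (calnexin) in the membrane. Both were positive in 9 of 9 classes and without overlap in 8. Calr rose in lymphatic endothelial-like cells, with 660.0, 749 and 649 CPM on the high-fat diet and 261, 418 and 285 CPM in controls (log2 fold change 1.09, SE 0.17, adjusted p = 0.00474). It rose in endothelial-like cells, with 441, 481 and 407 CPM on the high-fat diet and 239, 285 and 234 CPM in controls (0.81, SE 0.14, adjusted p = 0.0389). In T cell-like cells, where it was not called, Calr had 329.7, 458 and 378 CPM on the high-fat diet and 287, 234 and 219 CPM in controls (0.66, SE 0.19, adjusted p = 0.290). The T cell-like diets stood apart by a narrower margin than the endothelial ones. Canx in T cell-like cells had 164, 199 and 178 CPM on the high-fat diet and 155, 99.0 and 93.8 CPM in controls (0.67, SE 0.21, adjusted p = 0.323), control 1 again being the nearest to the high-fat diet samples. Canx was called in 0 of 9 classes, with fold changes from 0.18 to 0.67.

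The disulfide isomerases form and reshuffle disulfide bonds, and Pdia3 works with the lectin chaperones. All 3 were positive in 9 of 9 classes, and all 3 rose in lymphatic endothelial-like cells. There Pdia6 had 238, 295 and 270.2 CPM on the high-fat diet and 152, 117 and 74.3 CPM in controls (log2 fold change 1.23, SE 0.22, adjusted p = 0.00937). Pdia4 had 117, 127 and 106 CPM on the high-fat diet and 65.8, 49.5 and 44.1 CPM in controls (1.14, SE 0.24, adjusted p = 0.0382). Pdia3 had 449, 527 and 514 CPM on the high-fat diet and 315, 290.0 and 299 CPM in controls (0.72, SE 0.15, adjusted p = 0.0382). None of these 3 genes overlapped between the diets in that class. Pdia6 also rose in mesothelial-like cells, with 483, 527 and 636 CPM on the high-fat diet and 166, 265 and 230.3 CPM in controls (1.28, SE 0.20, adjusted p = 0.0133). In T cell-like cells Pdia4 had 92.5, 174 and 95.3 CPM on the high-fat diet and 83.2, 49.3 and 49.5 CPM in controls (1.06, SE 0.30, adjusted p = 0.290), the high value being that of high-fat diet 2.

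Among the co-chaperones, the J-domain proteins hand clients to BiP and drive its ATPase, and Sdf2l1 is a partner of Dnajb11 in that complex. Dnajb9, one of the most inducible of them, rose in mesothelial-like cells, with 151, 205 and 184 CPM on the high-fat diet and 50.2, 76.2 and 46.9 CPM in controls (log2 fold change 1.58, SE 0.24, adjusted p = 0.0116). Sdf2l1 was not called in any class, yet its diets were apart in 7 of 9. In fibroblast-like cells Sdf2l1 had 136, 188 and 193 CPM on the high-fat diet and 40.2, 53.5 and 61.8 CPM in controls (1.74, SE 0.21, adjusted p = 0.0660). The smooth muscle-like sums had 35.3, 46.1 and 38.7 CPM on the high-fat diet and 14.97, 10.6 and 12.8 CPM in controls (1.65, SE 0.18, adjusted p = 0.0796). The lowest high-fat diet value lay well above the highest control value in both classes.

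Dnajc3, a co-chaperone also known as an inhibitor of PERK-like kinases, was positive in 9 of 9 classes and called in 0. In fibroblast-like cells it had 246, 289.7 and 283 CPM on the high-fat diet and 158, 146 and 127 CPM in controls (log2 fold change 0.93, SE 0.13, adjusted p = 0.106). In smooth muscle-like cells it had 148, 189.8 and 149.8 CPM on the high-fat diet and 84.5, 90.1 and 70.7 CPM in controls (0.99, SE 0.16, adjusted p = 0.161). In macrophage-like cells it had 133, 135 and 127 CPM on the high-fat diet and 91.2, 89.2 and 74.6 CPM in controls (0.63, SE 0.13, adjusted p = 0.284). No sample of one diet reached the range of the other in these classes. Dnajb11 ranged from 0.13 to 0.96 over 9 classes. Dnajc10, a reductase that helps degradation, ranged only from -0.15 to 0.29, with 1 class higher and 1 lower without overlap.

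Manf and Creld2 are small proteins of the secretory pathway whose genes are known to be switched on by ER stress, and MANF binds BiP. Creld2 was called in more classes (4) than any other member, and Manf in 3. In mesothelial-like cells Creld2 had 112, 132 and 195 CPM on the high-fat diet and 20.1, 45.3 and 19.2 CPM in controls (log2 fold change 2.20, SE 0.33, adjusted p = 0.0133). In fibroblast-like cells Creld2 had 86.8, 130.3 and 119.96 CPM on the high-fat diet and 28.4, 36.8 and 30.3 CPM in controls (1.82, SE 0.19, adjusted p = 0.0432). In lymphatic endothelial-like cells Creld2 had 73.7, 86.9 and 70.5 CPM on the high-fat diet and 27.2, 33.7 and 34.8 CPM in controls (1.28, SE 0.28, adjusted p = 0.0384). All 3 classes showed complete separation of the diets. In endothelial-like cells Creld2 had 57.7, 65.6 and 50.5 CPM on the high-fat diet and 21.9, 26.2 and 28.2 CPM in controls (1.16, SE 0.19, adjusted p = 0.0389). It was apart but not called in macrophage-like cells, with 60.02, 65.3 and 39.0 CPM on the high-fat diet and 26.0, 26.2 and 21.9 CPM in controls (1.13, SE 0.21, adjusted p = 0.284). The same held in smooth muscle-like cells, with 36.1, 49.3 and 40.5 CPM on the high-fat diet and 19.2, 24.1 and 19.3 CPM in controls (1.01, SE 0.17, adjusted p = 0.179).

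Manf rose in mesothelial-like cells, with 607, 819 and 863 CPM on the high-fat diet and 130.5, 282 and 136 CPM in controls (log2 fold change 2.01, SE 0.29, adjusted p = 0.0208). It rose in fibroblast-like cells, with 459.96, 631 and 575 CPM on the high-fat diet and 159, 189 and 146 CPM in controls (1.75, SE 0.17, adjusted p = 0.0432). It rose in lymphatic endothelial-like cells, with 268, 371 and 335 CPM on the high-fat diet and 163, 135 and 169 CPM in controls (1.06, SE 0.18, adjusted p = 0.00818). The margin was widest in fibroblast- and mesothelial-like cells. In smooth muscle-like cells Manf had 207, 286 and 219 CPM on the high-fat diet and 88.6, 100.9 and 100.7 CPM in controls (1.29, SE 0.16, adjusted p = 0.0855). In endothelial-like cells Manf had 216, 293 and 219 CPM on the high-fat diet and 141, 147 and 140.4 CPM in controls (0.76, SE 0.15, adjusted p = 0.0867). In macrophage-like cells Manf had 278, 306 and 229.5 CPM on the high-fat diet and 172, 165 and 151 CPM in controls (0.73, SE 0.15, adjusted p = 0.284). These 3 classes were apart by diet without passing the adjusted threshold. In T cell-like cells the diets overlapped, with 311, 375 and 216 CPM on the high-fat diet and 241, 171 and 164 CPM in controls (0.67, SE 0.23, adjusted p = 0.335).

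No sensor or transcription factor of the response was called in any class. Xbp1 was positive in 9 of 9 classes and apart in 6, with 0 calls. In smooth muscle-like cells Xbp1 had 112, 137 and 109 CPM on the high-fat diet and 70.8, 67.4 and 63.6 CPM in controls (log2 fold change 0.83, SE 0.14, adjusted p = 0.177). In T cell-like cells Xbp1 had 96.9, 120.2 and 93.5 CPM on the high-fat diet and 81.0, 59.0 and 55.4 CPM in controls (0.71, SE 0.20, adjusted p = 0.290). Both sets were apart, control 1 of the T cell-like cells by the smallest margin. Atf4 was positive in only 2 of 9 classes, with fold changes from -0.44 to 0.39. Ern1, tested in 5 classes, was positive in 0 of them, and its lowest value was in mesothelial-like cells, with 11.5, 8.39 and 11.3 CPM on the high-fat diet and 25.1, 23.2 and 36.2 CPM in controls (-1.43, SE 0.39, adjusted p = 0.223). Atf6 was positive in 6 of 8 classes and Eif2ak3 in 3 of 4, both without a call.

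The degradation genes and the ATF4 targets had no call. Sel1l and Syvn1, which form the core of the ubiquitin ligase for ER substrates, were positive in 8 of 9 and in 3 of 5 classes. Herpud1, a membrane scaffold of the same machinery, was positive in 5 of 9, and Edem1, which picks out glycoproteins for degradation, in 3 of 8. The derlins help substrates out of the ER, and Derl1 was positive in 6 of 9 classes, Derl2 in 8 of 9 and Derl3 in the 2 classes in which it could be tested. The median log2 fold change of the degradation genes tested was 0.36 in fibroblast-, 0.68 in mesothelial- and 0.06 in endothelial-like cells. Trib3 was positive in 3 of 4 classes, Asns, an amino acid synthetase, in 3 of 3, and Chac1, which degrades glutathione, in the 1 class that had enough counts. Sec61b, part of the channel into the ER, was positive in 4 of 9 classes, with fold changes from -0.31 to 0.29. Members with too few counts for the filter were 0 in smooth muscle-, 1 in fibroblast-, 2 in endothelial-, 4 in macrophage-, 5 in mesothelial-, 8 in dendritic- and pericyte-, and 9 in T cell- and lymphatic endothelial-like cells, Chac1 and Derl3 being the most often missing.

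Among the 27 members with a promoter sequence, the median diet fold change was higher over those with the ERSE than over the others in each of the 9 classes. This is given as a description without a test. Manf, called in 3 classes, and Atf6, Hspa13, Hyou1 and Derl1 had no sequence and are on neither side. The ranges overlapped, and in smooth muscle- and dendritic-like cells the highest value was that of a member without a match. In fibroblast-like cells the median log2 fold change was 1.02 over 9 members with a match and 0.45 over 17 without. It was 0.76 over 8 and 0.06 over 17 in endothelial-, 0.99 over 9 and 0.30 over 18 in smooth muscle-, and 1.32 over 8 and 0.76 over 14 in mesothelial-like cells. Dendritic-like cells had the smallest medians, 0.38 over 7 with a match and 0.04 over 13 without. Sdf2l1 and Dnajb9 had high values without a match to these letters in their windows.

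Whether the diet effect differed between classes was tested against T cell-like cells in 1 model of all sums. Over the 8 classes, 1 member and class passed: the effect on Manf in mesothelial-like cells exceeded that in T cell-like cells by 1.34 on the log2 scale (SE 0.26, adjusted p = 0.0477). Of all genes, 0.0251% were called in that comparison. Manf in fibroblast-like cells exceeded it by 1.09 (SE 0.24, adjusted p = 0.0707). No member was called in the other 7 classes, where 0 (dendritic), 0.0167 (endothelial, lymphatic endothelial and pericyte), 0.0501 (macrophage), 0.0585 (fibroblast) and 0.175% (smooth muscle) of all genes were called. The number of calls over the 8 classes became 0 without any one of the high-fat diet samples or without control 3, and 4 and 2 without control 1 and control 2. Of the 4 without control 1, 3 were higher (mesothelial 2, fibroblast 1) and 1 was lower (macrophage), where 1.08, 1.98 and 1.25% of all genes were called in those classes.

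The second question was whether secretory classes held more of these transcripts than a non-secretory class, with T cell-like cells of the same samples as the comparison. The mean of fibroblast- and smooth muscle-like cells was higher than T cell-like cells for 8 members (37.6% of all genes were called higher) and lower for 4 (33.6%), among 30 tested in all classes together, so the members' count lay below that of all genes. Without control 1, 13 of 31 were higher and 5 lower, 18 calls in place of 12. Of all genes, 69.6% were then called in either direction, against 71.2% with control 1. The combined contrast hid opposite behaviour of its parts. Fibroblast-like cells alone were higher than T cell-like cells for 19 members (35.5%) and lower for 2 (33.1%), Edem1 and Sec61b. Smooth muscle-like cells alone were higher for 5 (35.5%) and lower for 11 (33.3%). The median log2 fold change over the members was 0.50 for fibroblast- and -0.26 for smooth muscle-like cells, against 0.01 over all genes for fibroblast-like cells.

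**Figure D3:**
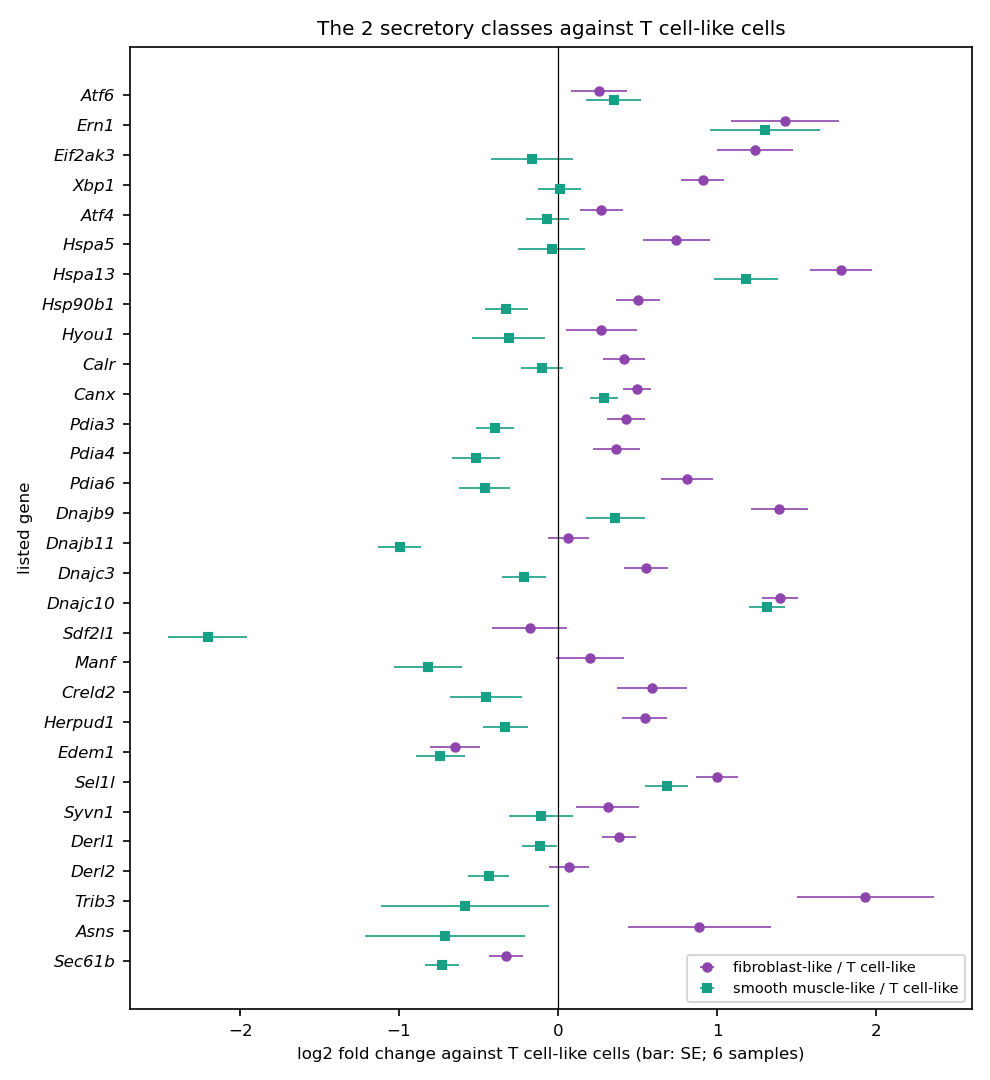
Log2 fold change against T cell-like cells of each tested listed gene (rows) in fibroblast-like and smooth muscle-like sums of 6 samples; bars are SE. Sdf2l1 lies at -0.18 in fibroblast- and -2.20 in smooth muscle-like cells, while Dnajc10 lies near 1.40 and 1.31.

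Compared directly in the same fit, fibroblast-like cells were higher than smooth muscle-like cells for 26 of 30 members and lower for 0, where 28.3% of all genes were called higher and 25% lower. The median was 0.77, against 0.03 over all genes. This contrast was added after the first results had been seen. Between 22 and 26 members were called with any 1 sample left out (24 without control 1), where 48.3 to 51.2% of all genes were called. Sdf2l1 differed by 2.02 (SE 0.22, adjusted p = 1.56e-10), with a lowest, median and highest level of 39.6, 97.9 and 191 CPM in fibroblast-like and 10.6, 25.1 and 44.9 CPM in smooth muscle-like cells. The ranges of Sdf2l1, which span both diets, overlapped, but within a sample fibroblast-like cells were above smooth muscle-like cells in 6 of 6 samples. The same held for 24 of the 30 members and for 30.1% of all genes. Pdia6 differed by 1.27 (SE 0.15, adjusted p = 5.78e-10), with 145, 254 and 429.7 CPM in fibroblast-like and 56.3, 115 and 198 CPM in smooth muscle-like cells. Eif2ak3 differed by 1.40, Dnajb11 by 1.06, Creld2 by 1.04, Dnajb9 by 1.03, Manf by 1.02 and Xbp1 by 0.90. Among the ATF4 targets, at low levels, Trib3 differed by 2.52 (SE 0.25), with 4.21, 7.3996 and 8.67 CPM in fibroblast-like and 0.52, 1.29 and 1.66 CPM in smooth muscle-like cells. Hspa5 differed by 0.78 (SE 0.20, adjusted p = 0.00103). Atf6, Ern1, Dnajc10 and Edem1 were not called, with differences from -0.09 to 0.12.

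Among members with a mean of at least 20 CPM, those with the highest fold change of the 2 secretory classes against T cell-like cells were Hspa13, Dnajc10, Dnajb9, Sel1l, Xbp1 and Canx. Below that level the sensor Ern1 was also higher (1.37, SE 0.33, adjusted p = 0.000269). Levels here are CPM in the fit of all classes, given as lowest, median and highest of 6 samples. Hspa13 had 29.0, 31.8 and 38.5 CPM in fibroblast-, 18.7, 21.5 and 24.8 in smooth muscle- and 6.00, 8.003 and 19.5 in T cell-like cells (log2 fold change of the mean of both 1.48, SE 0.19, adjusted p = 1.12e-09). Dnajc10 had 74.6, 92.4 and 101.9 CPM in fibroblast-, 58.5, 82.9 and 104 in smooth muscle- and 26.0, 33.9 and 38.9 in T cell-like cells (1.36, SE 0.10, adjusted p = 7.38e-17). Sel1l had 72.2, 85.4 and 91.5 CPM in fibroblast-, 59.6, 68.2 and 73.1 in smooth muscle- and 23.3, 40.4 and 55.4 in T cell-like cells (0.84, SE 0.12, adjusted p = 3.38e-08). For Dnajc10 and Sel1l the lowest fibroblast- and smooth muscle-like samples lay above the highest T cell-like sample.

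Dnajb9 had 50.2, 70.4 and 104 CPM in fibroblast-, 23.5, 36.2 and 49.8 in smooth muscle- and 16.7, 27.6 and 39.0 in T cell-like cells (0.88, SE 0.17, adjusted p = 8.84e-06). Xbp1 had 131, 169.8 and 213 CPM in fibroblast-, 64.7, 90.2 and 133 in smooth muscle- and 63.4, 94.2 and 133 in T cell-like cells (0.46, SE 0.12, adjusted p = 0.000819). Canx had 174, 222 and 284 CPM in fibroblast-, 165, 195 and 235 in smooth muscle- and 107, 175 and 219.9 in T cell-like cells (0.39, SE 0.08, adjusted p = 2.20e-05). For Xbp1 the smooth muscle-like and T cell-like ranges coincided, and the difference came from fibroblast-like cells.

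At the other end, Sdf2l1 had a median of 116 CPM in T cell-like cells, above both medians given before (-1.19, SE 0.21, adjusted p = 3.09e-06). Edem1 had 28.8, 35.3 and 43.4 CPM in fibroblast-, 28.6, 33.0 and 41.0 in smooth muscle- and 27.9, 54.5 and 83.3 in T cell-like cells (-0.69, SE 0.14, adjusted p = 1.90e-05). Sec61b had 310.4, 407 and 454 CPM in fibroblast-, 272, 289.7 and 344 in smooth muscle- and 401, 501 and 675 in T cell-like cells (-0.53, SE 0.09, adjusted p = 1.25e-06). The smooth muscle-like range of Sec61b lay wholly below the T cell-like one.

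Over all 9 classes, mesothelial-like cells had the highest mean level for 17 of the 30 members, fibroblast-like for 5, macrophage-like for 4, dendritic-like for 3 and lymphatic endothelial-like for 1. The lowest mean was most often in pericyte- (8), T cell- (7) and smooth muscle-like cells (6). Against T cell-like cells, mesothelial-like cells were higher for 19 members (30.2% of all genes) and lower for 3 (28.3%), and macrophage-like cells higher for 15 (28.2%) and lower for 1 (24.7%). Dendritic-like cells were higher for 10 (18%) and lower for 1 (16.8%), endothelial-like cells higher for 9 (31.3%) and lower for 7 (26.9%), and lymphatic endothelial-like cells higher for 6 (24.9%) and lower for 3 (25.8%). Pericyte-like cells were higher for 3 (28.7%) and lower for 10 (29.4%). Of the pericyte-like cells, 60.81% had only the smallest number of markers needed, and 0% lay in a cluster given that class. Their sums held smooth muscle markers at 10757 to 23496 CPM, beside 2858 to 7808 CPM of their own markers. Whether they are distinct from smooth muscle-like cells was not tested. The mean Hspa5 level was 814 ± 589 CPM in mesothelial-, 608 ± 405 in fibroblast-, 551 ± 232 in macrophage-, 401 ± 274 in lymphatic endothelial-, 370.4 ± 78.1 in dendritic-, 365 ± 259 in pericyte-, 339 ± 209.5 in smooth muscle-, 339 ± 189.9 in T cell- and 301 ± 154 CPM in endothelial-like cells (SD, n = 6). This SD includes both diets and ignores that the classes share samples, so it cannot show whether neighbours in this order differ.

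Summed over all 32 genes, transcripts of the list made up 7918, 9086 and 10049.7 CPM of mesothelial-like cells on the high-fat diet and 3292, 4391 and 3978 CPM in controls. In fibroblast-like cells they made up 5636, 7469 and 7028 CPM on the high-fat diet and 3476, 3322 and 3498 CPM in controls. In smooth muscle-like cells they made up 3294, 4374 and 3398 CPM on the high-fat diet and 2446, 2589 and 1941 CPM in controls. The diets were apart in each of these classes, and a smooth muscle-like sum of high-fat diet samples was close to a fibroblast-like sum of controls. With all cells in 1 sum, the list made up 4638, 5647 and 4956 CPM on the high-fat diet and 2966, 2932 and 2715 CPM in controls.

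Plasma cell-like cells, whose kind secretes antibody, were too few to test (88, 13 and 19 in the high-fat diet samples and 5, 54 and 85 in controls), so they are set beside B cell-like cells without a test. The 264 plasma cell-like cells and the 5251 B cell-like cells were pooled over samples, and the intervals are exact Poisson 95% intervals that cover counting error only. Of the B cell-like cells, 2390 and 2240 came from controls 2 and 3, so the pools differ in their mix of diets. Xbp1, which plasma cells need to develop, stood at 1595 CPM (1541 to 1652) in plasma cell-like and at 65.8 CPM (62.0 to 69.8) in B cell-like cells. Hsp90b1 stood at 2548 CPM (2479 to 2619) in plasma cell-like and at 203 CPM (196 to 209.8) in B cell-like cells. Edem1 stood at 552 CPM (520.02 to 585) in plasma cell-like and at 32.2 CPM (29.6 to 35.04) in B cell-like cells. None of these intervals meet. Derl3, one of the genes with the largest fold in the plasma class, stood at 355 CPM (329 to 382) in plasma cell-like and at 6.65 CPM (5.48 to 7.98) in B cell-like cells. Atf4 was closer between the 2 pools, at 151 CPM (135 to 169) in plasma cell-like and 105 CPM (99.9 to 109.6) in B cell-like cells. In the high-fat diet samples it stood at 151, 192 and 148 CPM in plasma cell-like and 70.0, 73.0 and 73.2 CPM in B cell-like cells. In controls 2 and 3 it stood at 163 and 143 CPM in plasma cell-like and 124 and 99.7 CPM in B cell-like cells.

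**Figure D4:**
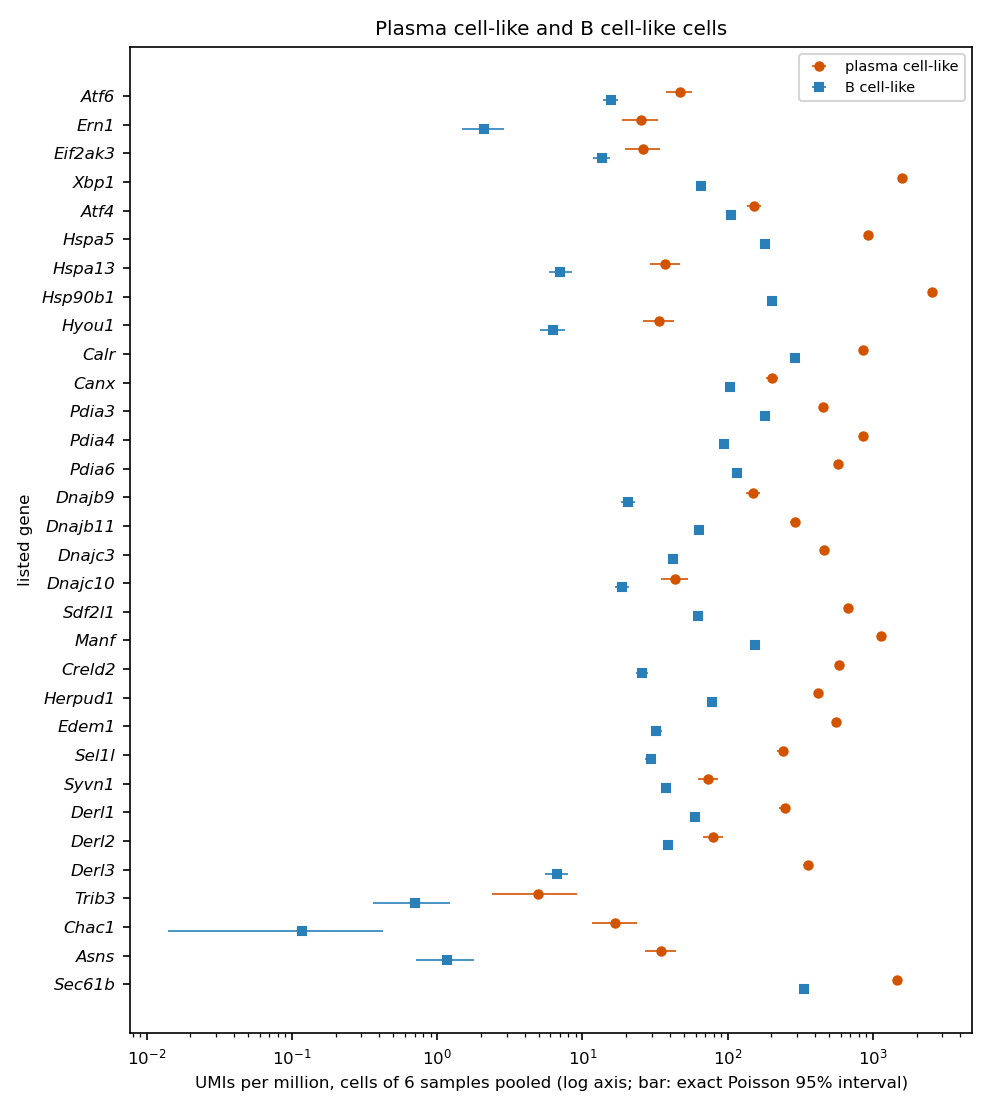
CPM (log axis) of each listed gene in plasma cell-like and B cell-like cells, pooled over 6 samples, with exact Poisson 95% intervals that cover counting error only. Xbp1 lies at 1595 in plasma cell-like and 65.8 in B cell-like cells, and Atf4 at 151 and 105.

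Over the 5 samples with at least 10 cells of both kinds, 28 of the 32 members were higher in plasma cell-like than in B cell-like cells in every sample, as were 12.0% of the 13531 genes with at least 10 UMIs in these cells. Hspa5 had a lowest, median and highest level of 470.1, 1207 and 1511 CPM in plasma cell-like and of 118.5, 297 and 422 CPM in B cell-like cells. Sdf2l1 had 422, 745 and 896 CPM in plasma cell-like and 44.7, 77.6 and 120.4 CPM in B cell-like cells. Sec61b had 1240.0, 1345 and 2194 CPM in plasma cell-like and 268, 345 and 402 CPM in B cell-like cells. The ranges did not meet for any of these genes. Plasma cell markers in the other classes overlapped between the diets.

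The other genes of the pathway were summarised as lists, and the differences between lists were not tested. In fibroblast-like cells the 18 further folding enzymes had a median log2 fold change of 0.25, the 23 translocation and glycosylation genes 0.23, the 13 further degradation genes 0.16 and the 18 tested of 20 further PERK and ATF4 arm genes 0.06, against 0.60 over the members. None of these genes was called in any class by edgeR, and in fibroblast-like cells 6, 10, 3 and 1 of them, in the same order of lists, were higher at an unadjusted p under 0.05, as were 20 of the 31 members and 5.64% of all genes. DESeq2 was not run on these lists. In mesothelial-like cells the medians of the same lists were 0.25, 0.35, 0.15 and -0.06, against 0.82 over the members. In endothelial-like cells they were 0.02, 0.09, 0.03 and 0.07, against 0.22.

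**Figure D5:**
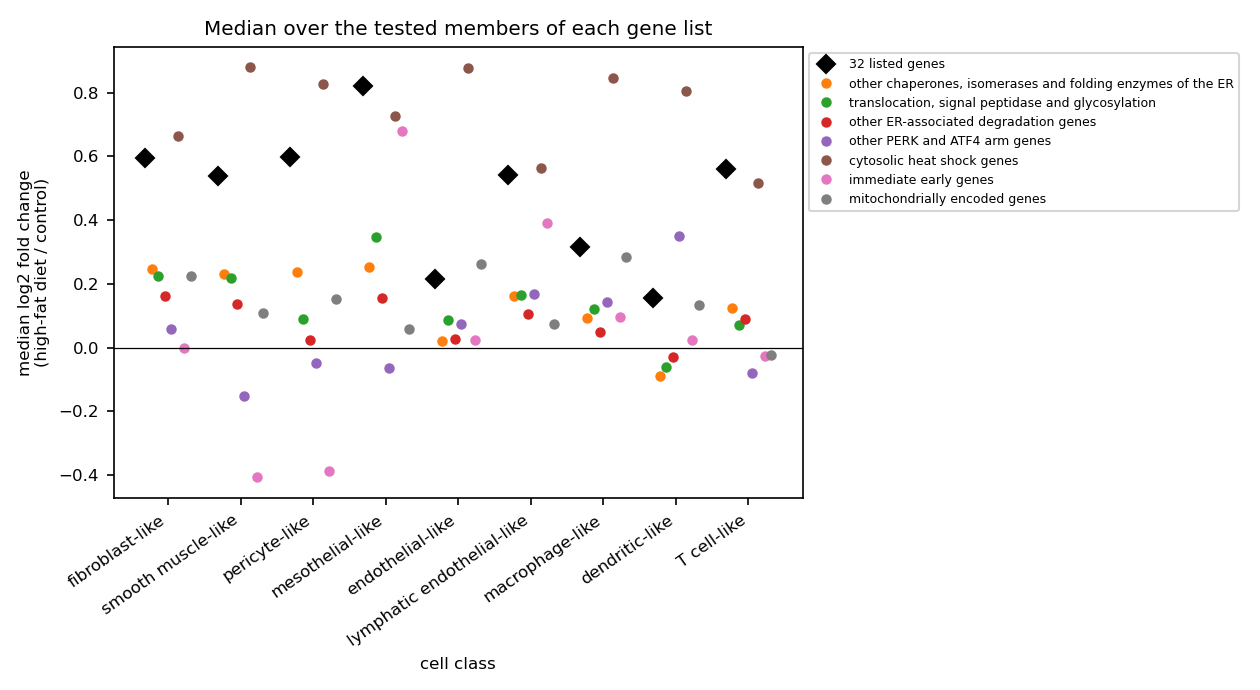
Median log2 fold change, high-fat diet over control, of the tested members of each gene list (colours) by cell class; the 32 listed genes are black diamonds. In fibroblast-like cells the listed genes lie at 0.60 and the cytosolic heat shock genes at 0.66, and the other ER lists at 0.06 to 0.25.

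The cytosolic heat shock genes, which answer misfolding outside the ER, were set beside the members as a second stress list. Their median was 0.66 in fibroblast-, 0.88 in smooth muscle-, 0.88 in endothelial-, 0.85 in macrophage-, 0.73 in mesothelial- and 0.56 in lymphatic endothelial-like cells, and all 14 were positive in fibroblast-, smooth muscle- and macrophage-like cells. In endothelial-like cells Hspb1 (log2 fold change 1.08, adjusted p = 0.0118), Hspa8 (0.94, adjusted p = 0.0295) and Hsp90ab1 (0.82, adjusted p = 0.0389) rose. The same 3 genes rose in lymphatic endothelial-like cells, by 1.40, 1.25 and 0.86 (adjusted p = 0.00133, 0.000352 and 0.00606). Hspb1 in endothelial-like cells had 1521, 1629 and 1445 CPM on the high-fat diet and 766, 716 and 688 CPM in controls, without overlap. The immediate early genes, which are known to respond to tissue digestion, had medians of -0.0003 in fibroblast-, -0.41 in smooth muscle-, 0.02 in endothelial- and 0.68 in mesothelial-like cells, and Jund rose in lymphatic endothelial-like cells (0.69, adjusted p = 0.0384). Mitochondrially encoded genes had medians of 0.23 in fibroblast-, 0.26 in endothelial- and 0.06 in mesothelial-like cells, without a call. The part of dissociation and RNA quality in the result was not tested.

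Most marker sums overlapped between the diets within a class, and those that did not are described here. With 3 samples per diet some sums can separate by chance, and no marker sum was tested for a difference by diet. The own markers of T cell- and dendritic-like sums were higher without overlap in the high-fat diet samples. Adipocyte markers were lower without overlap on the high-fat diet in endothelial-like cells, at 40.0, 67.0 and 60.5 CPM, against 139, 113 and 304 CPM in controls. They were also lower without overlap in mesothelial-like cells, at 6.65, 13.5 and 17.9 CPM on the high-fat diet and 35.8, 22.4 and 35.4 CPM in controls, and in lymphatic endothelial-, macrophage- and pericyte-like cells. In mesothelial-like cells dendritic markers were higher without overlap, at 156, 77.1 and 66.8 CPM on the high-fat diet and 30.7, 44.7 and 62.4 CPM in controls. Schwann markers in the same cells were lower, at 101.4, 83.2 and 106 CPM on the high-fat diet and 189, 161 and 112 CPM in controls. Natural killer markers were lower without overlap in fibroblast-, macrophage-, endothelial- and lymphatic endothelial-like cells, at up to 2.33 CPM on the high-fat diet and up to 15.5 CPM in controls, and T cell markers in smooth muscle- and pericyte-like cells. Fibroblast markers summed to 9260 CPM in mesothelial-like cells pooled over samples, beside 7058 CPM of their own markers. In endothelial- and T cell-like cells fibroblast markers summed to 1300 and 824 CPM. In mesothelial-like cells they overlapped between the diets, at 8300, 6946 and 13715 CPM on the high-fat diet and 8219, 11039 and 5658 CPM in controls. The part of all these markers in the results was not tested.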

How the data were processed

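Single-cell RNA of mouse aorta was measured by 3′ UMI tags in 6 samples. The authors deposited raw UMI counts per gene and cell, made with Cell Ranger 3.0 on mm10, per the submitters' processing notes; 3′ tags do not compare levels between genes. Cells with at least 300 genes and under 20% mitochondrial counts were kept. Cells were classed by counting detected markers (3 to 5 needed per class), a scoring rule set after marker distributions were seen. For fibroblast-, smooth muscle-, macrophage- and endothelial-like cells each counted marker had to reach 3 UMIs per 10000. For erythroid-, skeletal muscle- and cardiomyocyte-like cells the markers also had to hold 5% of the UMIs of the cell. Cells of mixed lineage were left out. UMI counts were summed per sample and class and tested with edgeR 4.0.16 (R 4.3.3; TMM scaling, filterByExpr, robust quasi-likelihood test, Benjamini-Hochberg over all genes of a fit, threshold 0.05). Class contrasts had sample as a block. B cell-like cells, planned beside T cell-like cells, fell under 20 cells in 1 sample (19 in control 1) and dropped out. CPM by diet use the scaling of that class's fit, CPM across classes that of the joint fit, and sums over the list and pooled or single-well levels are unscaled. Clustering for an alternative used scanpy 1.11.5. Alternatives were DESeq2 1.42.0, RLE size factors, no filter, a replicate block, single barcode suffixes (read as wells), a stricter gate, classes from clusters, doublets left out by Scrublet, stricter cell filters and each sample left out.

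Values per sample are given for Hspa5 and for the 5 members with the smallest unadjusted p by diet in each of 5 classes (mean level 20 CPM or more), for the members called by diet in any class, and for the 6 highest and 3 lowest members of the secretory contrast; others shown were chosen after their values were seen. The members and lists were chosen with earlier results of these data known. The tests were checked on simulated counts.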

Additional observations from a re-analysis of the deposited data

Results flagged for a closer look

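The diet effect on Manf, a small secretory pathway protein that binds BiP, was larger in mesothelial-like than in T cell-like cells by 1.34 on the log2 scale (edgeR quasi-likelihood interaction test, adjusted p = 0.0477), a difference between classes under the same contrast. The log2 fold change by diet was 2.01 in mesothelial-like and 0.67 in T cell-like cells, with 3 samples per diet. The difference was between 1.02 and 1.92 when each sample was left out in turn, and the adjusted p was 0.078, 0.229 and 0.422 without high-fat diet 1, 2 and 3, and 0.0237, 0.000284 and 0.161 without control 1, 2 and 3. The mesothelial-like sum of control 1 rested on 25 cells. T cell-like sums of control 1 carried fibroblast markers at 2440 CPM, and their part in the result was not tested.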

How the results depend on the processing

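Counts of called members moved with the processing, as did calls over all genes. By DESeq2 they were 15 in fibroblast-like cells (2 by edgeR), 15 in all cells (0), 8 in smooth muscle- (0), 5 in macrophage- (0) and 1 in pericyte-like cells (0), where 1.52, 2.11, 0.764, 0.252 and 0.0481% of all genes were called. Counts by DESeq2 were also 5 in endothelial- (4), 8 in mesothelial- (6) and, fewer than by edgeR, 5 in lymphatic endothelial-like cells (7). There 0.454, 0.271 and 0.24% of all genes were called. Without the filter on low counts they were 5 in T cell- (0), 8 in endothelial- (4), 5 in fibroblast- (2), 2 in macrophage- (0), 12 in mesothelial- (6), 5 in pericyte- (0) and 2 in smooth muscle-like cells (0), where 1.65, 1.14, 0.099, 0.0782, 0.852, 0.259 and 0.0907% of all genes were called. With classes from clusters they were 2 in endothelial-, 0 in fibroblast- and 3 in mesothelial-like cells. From well 1 alone they were 0 in endothelial- and 1 in lymphatic endothelial-like cells, and from well 2 alone 0 in endothelial- and 0 in fibroblast-like cells. Members higher without overlap were 3 in T cell- (8), 2 in dendritic- (6) and 15 in fibroblast-like cells (24) in well 2, and 3 in dendritic- (6) and 6 in pericyte-like cells (10) under a stricter gate. The smooth muscle- against T cell-like contrast called 8 in well 1 (16). Fibroblast-like cells alone gave 21 secretory calls (12), where 68.6 and 71.2% of all genes were called. Shares of all genes are not given for classes from clusters, single wells, the stricter gate, the replicate block or counts without overlap. The causes were not tested. With a sample left out, calls ranged from 0 to 9 in T cell-, 0 to 1 in dendritic-, 0 to 7 in endothelial-, 0 to 0 in fibroblast-, 2 to 10 in lymphatic endothelial-, 0 to 7 in macrophage- and 2 to 7 in mesothelial-like cells. In the same order of classes, up to 9.89, 3.96, 2.87, 0.0143, 1.69, 3.67 and 0.374% of all genes were called in such a fit. Members higher without overlap then ranged from 8 to 16 in T cell-like cells, secretory calls from 11 to 18 (66.7 to 70% of all genes), and interaction calls from 0 to 4. With a replicate block calls were 0 in endothelial- and 0 in fibroblast-like cells. Same-numbered samples correlated from -0.254 to 0.404 in their deviations from means of 3. Such deviations cannot show whether the numbers pair the samples. Of 870 named gene values, 730 kept direction and side of the threshold, 99 lost the call, 41 gained it and 0 reversed. The 19 diet calls stayed positive in 304 of 304 alternative values and called in 209. Too few cells remained to refit mesothelial-like cells in single wells, lymphatic endothelial- and pericyte-like cells in well 2, and pericyte-like cells from clusters.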

Other observations

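Classes too small for a test are given as the summed level of the 32 genes. In Schwann-like cells the sum was 5223, 5926 and 4428 CPM on the high-fat diet and 2998, 2983 and 3279 CPM in controls, without overlap. In B cell-like cells it was 3889, 3621 and 3005 CPM on the high-fat diet and 2774, 1982 and 2298 CPM in controls, also without overlap. Erythroid-like cells were among the lowest, with 851, 1256 and 875 CPM on the high-fat diet and 695, 758 and 341 CPM in controls. Cardiomyocyte-like cells had 1195, 1446 and 866 CPM on the high-fat diet and 994, 305 and 722 CPM in controls. Skeletal muscle-like cells had 947 and 1031 CPM in high-fat diet 2 and 3, and 1051, 599 and 552 CPM in controls. Some sums of these muscle classes rested on as few as 2 or 3 cells. Plasma cell-like cells had 19127, 20007 and 18266 CPM on the high-fat diet and 4505, 15831 and 9764 CPM in controls, the lowest value resting on 5 cells of control 1.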
